A study of Mus musculus with 18 samples.

Results

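The genes described here are 36 genes of glycolysis, lactate handling and the response to low oxygen, in mouse embryonic stem cells (ESCs) leaving naive pluripotency. They were chosen by name, from the biochemistry of the pathway and the textbook targets of the hypoxia-inducible factors (HIF). The rule used no measured value, although earlier results of these data were known when it was set. All 36 were found among the 53801 genes of the count table, and all 36 passed the filter on low counts that left 18469 genes for testing. No member was at the detection floor of 3 counts in every library of a group, although Ankrd37, Eno2, P4ha2 and Pfkfb4 were rare and came down to 2, 18, 23 and 26 reads in a library.

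Polyadenylated RNA was sequenced from E14TG2a cells (WT) and from iEZR_CA cells, an E14 derivative that carries, on a PiggyBac vector with an IRES-mCherry reporter, a doxycycline-inducible, phosphomimetic and so constitutively active form of ezrin, the protein that links the cortical actin network to the plasma membrane. Both lines were sampled on gelatin in 2i+LIF, the medium that holds cells naive (ESC), and after 24 h and 48 h in N2B27 without those factors (T24 and T48), with 3 libraries in each of the 6 groups. The study used the 2 lines to ask whether keeping the membrane under high tension impedes early differentiation. iEZR_CA cells received doxycycline overnight ahead of exit and no such treatment is described for WT cells, so the drug, the transgene and any other difference between the lines cannot be told apart.

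Total reads on genes ran from 10940752 to 33276622 per library. Reads on Ezr, in which the transgene and the endogenous gene cannot be told apart, were 2.11, 2.70 and 1.61 times the WT mean in iEZR_CA ESC, T24 and T48 cells, and the lines never overlapped (exact permutation test, two-sided, p = 0.1 for every stage, which is as low as 3 against 3 can go). The summed normalized counts of 6 naive markers, none of them at 0, fell from 102435 to 105526 in WT ESC libraries to 2638 to 2755 in WT T48 libraries, and from 97293 to 98339 to 10998 to 11964 in iEZR_CA libraries. Markers of other cell types moved as well: 9 primitive endoderm genes summed to 1335 to 1422 in WT ESCs, 5708 to 6187 in WT T48 cells and 2637 to 2796 in iEZR_CA T48 cells, and 6 fibroblast genes to 34.9 to 52.8, 576 to 639 and 359 to 439, with Dcn at 0 in the ESC groups of both lines. The genes of a list did not all move alike. At an adjusted p under 0.05, 3 of the 9 primitive endoderm genes were higher and 2 lower at T48 than in ESCs in WT cells. In iEZR_CA cells 3 were higher and 3 lower. Of the 4 fibroblast genes tested, 4 were higher in WT and 2 in iEZR_CA cells. The part of these markers in the results below was not tested. In bulk RNA, fewer cells of a type and less RNA per cell cannot be told apart.

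Glycolysis splits glucose into pyruvate in the cytosol, and lactate dehydrogenase turns pyruvate into lactate when it is not sent on to the mitochondrion. HIF, a dimer of an oxygen-regulated alpha subunit such as Hif1a and a stable partner, binds a short core motif and raises transcription of the glucose transporters, most glycolytic enzymes, lactate export and pyruvate dehydrogenase kinase. Naive mouse ESCs use both glycolysis and respiration, and the cells of the early post-implantation epiblast are known for a more glycolytic metabolism.

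Promoters are shown for the members that rose in WT cells and whose response at T24 differed between the lines by more than a factor of 2 (below). Each sequence is the 250 bases before the first RefSeq transcription start listed for the gene (GRCm38.p6), written 5′ to 3′ on the strand of the gene, and the capitals mark the core motif that HIF dimers bind, searched as ACGTG and GCGTG on both strands, so that the complements CACGT and CACGC are also in capitals and a CACGTG counts once on each strand. Slc16a3 exports lactate from the cell (chr11:120948817-120949066, plus strand). Ldha is the lactate dehydrogenase subunit that favours lactate (chr7:46845554-46845803, plus strand). Bnip3 promotes removal of mitochondria (chr7:138909507-138909756, minus strand), and Egln3 is an oxygen-sensing prolyl hydroxylase that marks HIF for destruction and is itself a HIF target (chr12:54203875-54204124, minus strand).
Slc16a3: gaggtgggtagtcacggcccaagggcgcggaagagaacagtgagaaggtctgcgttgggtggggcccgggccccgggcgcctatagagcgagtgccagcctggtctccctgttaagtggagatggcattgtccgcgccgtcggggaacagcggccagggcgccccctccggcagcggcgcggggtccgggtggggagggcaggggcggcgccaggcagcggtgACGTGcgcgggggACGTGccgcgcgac
Ldha: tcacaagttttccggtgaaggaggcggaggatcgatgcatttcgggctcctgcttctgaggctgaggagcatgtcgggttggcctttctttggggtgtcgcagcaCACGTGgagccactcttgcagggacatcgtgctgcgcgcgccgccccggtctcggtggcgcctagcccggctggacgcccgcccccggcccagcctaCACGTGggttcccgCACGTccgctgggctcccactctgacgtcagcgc
Bnip3: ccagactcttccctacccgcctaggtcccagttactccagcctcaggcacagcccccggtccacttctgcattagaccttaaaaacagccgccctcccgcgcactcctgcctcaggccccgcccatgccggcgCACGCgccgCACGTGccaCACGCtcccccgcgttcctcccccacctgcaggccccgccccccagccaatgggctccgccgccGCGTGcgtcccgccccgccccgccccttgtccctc
Egln3: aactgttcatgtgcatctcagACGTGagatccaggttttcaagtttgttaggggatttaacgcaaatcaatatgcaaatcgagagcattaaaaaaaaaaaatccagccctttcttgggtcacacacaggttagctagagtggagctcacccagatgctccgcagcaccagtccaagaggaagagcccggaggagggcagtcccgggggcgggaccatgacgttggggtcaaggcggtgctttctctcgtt
These windows held 2, 5, 2 and 1 matches to ACGTG and 0, 0, 3 and 0 matches to GCGTG. RefSeq windows were found for 34 of the members, with Ero1l under its current symbol Ero1a. In the first window listed for each of these 34, 18 (52.9%) held ACGTG, 19 (55.9%) GCGTG and 27 (79.4%) either, while the shares of all 32851 promoter windows of the same length, which include further windows of genes with several starts, were 16.6%, 28.2% and 38.6%. A match of 5 letters is a description and not a bound site. The members were chosen in part as textbook HIF targets, and the windows were not matched in base composition. The larger shares among the members are therefore no test of HIF in these cells. The first Vegfa window held neither motif and the second, at another annotated start, held 1 match to each.

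Expression is given as the normalized count, the read count divided by the size factor of its library, and changes as log2 fold changes ± standard error from edgeR, where 1 is a doubling. A gene was called when its Benjamini-Hochberg adjusted p, over all genes tested, was under 0.05. Replicates were close (common biological coefficient of variation 2.98%), so much of the transcriptome was called and small changes pass. The share or number of all genes called is therefore given beside the main counts of members. Genes with more reads pass the threshold more easily. The shares of all genes were not matched to the members in read count, and most members were not rare.

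In WT cells, 25 of the 36 members (69.4%) were higher at T48 than in ESCs and 10 (27.8%) were lower, against 37.1% and 37.4% of all genes tested. Their median log2 fold change was 0.55, with 0.0058 for all genes, and 18 members (50%) moved by more than a factor of 2 with a call, of which 14 were higher. Of all 18469 genes tested, 5790 moved as far with a call. With spike-in scaling 25 members were higher and 7 lower at T48. Of the members called with it, 78.1% were higher, against 66.3% of all genes called. At T24, 19 members (52.8%) were higher and 14 (38.9%) lower, against 31.8% and 33.6% of all genes. With spike-in scaling 17 were higher and 8 lower, so that 68% of the members called were higher, against 61.6% of all genes called. The T24 median of 0.11 changed sign, to -0.09, when the 10 members with near-identical copies elsewhere in the genome were left out, and the T48 median went from 0.55 to 0.36. Those 10 were Gpi1, Tpi1, Gapdh, Pgk1, Pgam1, Eno1, Pkm, Ldha, Ldhb and Bnip3. All but Bnip3 encode enzymes of glycolysis or lactate dehydrogenase, so a median without them also describes a set with fewer enzymes. In iEZR_CA cells, 22 members (61.1%) were higher and 12 (33.3%) lower at T48, against 35.2% and 35.0% of all genes, with a median of 0.44. With spike-in scaling 22 were higher and 10 lower at T48. Of the members called with it, 68.8% were higher, against 69.4% of all genes called, so the larger share of higher members was not seen there. At T24, 14 (38.9%) were higher and 13 (36.1%) lower, against 27.1% and 28.9%, with a median of 0.05 that became -0.03 without the members that have copies. With spike-in scaling 13 were higher and 4 lower at T24, so that 76.5% of the members called were higher, against 68.9% of all genes called.

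The interaction of line and time, which tests whether the change from ESCs differed between the lines, was called for 25 of 36 members (69.4%) at T24 and 30 (83.3%) at T48, against 38.3% and 45.8% of all genes. Of the members, 17 (47.2%) had the lower and 8 (22.2%) the higher change in iEZR_CA cells at T24, and 20 (55.6%) and 10 (27.8%) at T48. Of all 18469 genes tested, 3115 had the lower and 3966 the higher change at T24, and 3698 and 4754 at T48. With the thresholds the study set for interactions, an absolute log2 value above 1 and a mean normalized count above 5, 5 members (13.9%) remained at T24 and 7 (19.4%) at T48, against 8.37% and 13.1% of all genes. Scaling libraries by spike-in sequences, whose addition is not described in the sources used here, brought the median log2 fold change of all genes from near 0 to 0.13 and 0.27 at T24 and T48 in WT cells and to 0.14 and 0.26 in iEZR_CA cells. With it, 760 of 18469 genes had a called lower and 1656 a called higher interaction at T24, and 1640 and 2241 at T48. It left 13 members with a called interaction at T24 and 14 at T48. At T24 these were Slc2a3, Slc16a3, Hk1, Pfkl, Pfkfb3, Tpi1, Ldha, Ldhb, Pdk1, Egln3, Bnip3, P4ha2 and Ndrg1. At T48 they were Slc2a1, Slc2a3, Slc16a3, Hk1, Pfkl, Pfkp, Pfkfb3, Tpi1, Pgk1, Eno1, Eno3, Ldha, Egln3 and Vegfa. Without the members that have copies, the median interaction moved from -0.18 to -0.0017 at T24 and from -0.37 to -0.26 at T48.

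**Figure D1:**
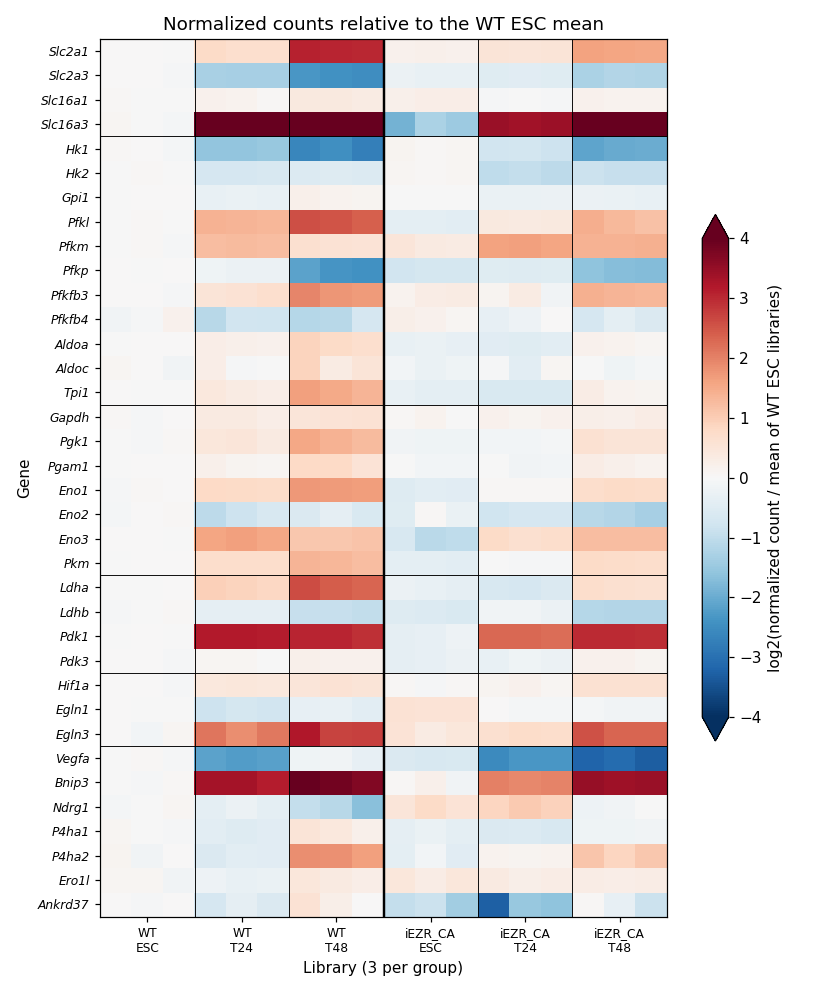
Normalized counts of the 36 members in each of the 18 libraries, as log2 of the ratio to the mean of the WT ESC libraries (red higher, blue lower, colours end at 4 in either direction), with thin lines between role groups and a thick line between WT and iEZR_CA. Slc16a3, Pdk1 and Bnip3 turn dark red during exit in both lines, Slc2a3, Hk1 and Pfkp turn blue, and Vegfa ends near its starting level in WT but dark blue in iEZR_CA.

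Of the genes of uptake and export, Slc2a1, Slc2a3 and Slc16a3 changed by more than a factor of 2 by T48 in WT cells and Slc16a1 did not. Slc2a1 encodes GLUT1, the transporter of basal glucose uptake. Its normalized counts in WT cells were 3344, 3351 and 3283 in ESCs, 5608, 5305 and 5266 at T24 and 28164, 27649 and 26683 at T48. In iEZR_CA cells they were 3714, 3800 and 3713, then 4783, 4682 and 4768, then 10106, 9994 and 9636. All WT T48 libraries lay above all iEZR_CA T48 libraries, whereas in ESCs the order was the reverse and the gap small (0.16 ± 0.029, not called with spike-in scaling). The rise by T48 was 8.27-fold in WT and 2.65-fold in iEZR_CA, and the lines differed in it by a log2 value of -1.63 ± 0.039 (edgeR quasi-likelihood test, adjusted p = 1.44e-44).

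Slc2a3 encodes GLUT3, a transporter with high affinity for glucose, and moved the opposite way. Counts in WT cells fell from 31118, 30863 and 29472 in ESCs to 12469, 12059 and 12133 at T24 and 6104, 5719 and 5438 at T48. In iEZR_CA cells they were 25677, 25001 and 24886 in ESCs, 21635, 22508 and 21597 at T24 and 12765, 13494 and 13199 at T48. The lines did not overlap at any stage, and iEZR_CA cells went from the lower line in ESCs to the higher one at T24 and T48. The interaction was 1.13 ± 0.041 at T24 and 1.48 ± 0.042 at T48 (edgeR, adjusted p = 9.17e-24 and 7.42e-28).

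Slc16a3 encodes MCT4, which exports lactate from strongly glycolytic cells, and rose more than any other member in both lines. In WT cells it went from 144, 135 and 127 in ESCs to 11327, 10936 and 10490 at T24 and 12473, 12141 and 11752 at T48. In iEZR_CA cells it went from 36.5, 56.1 and 49.0 to 1493, 1377 and 1443 and then to 12203, 12064 and 11836. At T24 the iEZR_CA mean was 0.132 of the WT mean, while at T48 the lines overlapped, with a difference of -0.0038 ± 0.029 (edgeR, adjusted p = 0.925). WT cells had thus reached 80.8 times their ESC level at T24, and iEZR_CA cells 30.5 times at T24 and 255 times at T48. The interaction was -1.44 ± 0.14 at T24 and 1.49 ± 0.12 at T48 (edgeR, adjusted p = 2.56e-13 and 1.48e-16), the latter with level T48 counts and a lower ESC start in iEZR_CA cells.

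Slc16a1, which encodes MCT1 and carries lactate and pyruvate both ways, stayed between 3170 and 4265 in all 18 libraries. It rose slightly in WT cells (0.11 ± 0.031 at T24, 0.35 ± 0.030 at T48) and fell slightly in iEZR_CA cells (-0.28 ± 0.031 and -0.10 ± 0.030). With spike-in scaling the rise in WT cells at T24 (0.24) and the fall in iEZR_CA cells at T24 (-0.13) were not called, and the T48 value in iEZR_CA cells turned to 0.15.

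**Figure D2:**
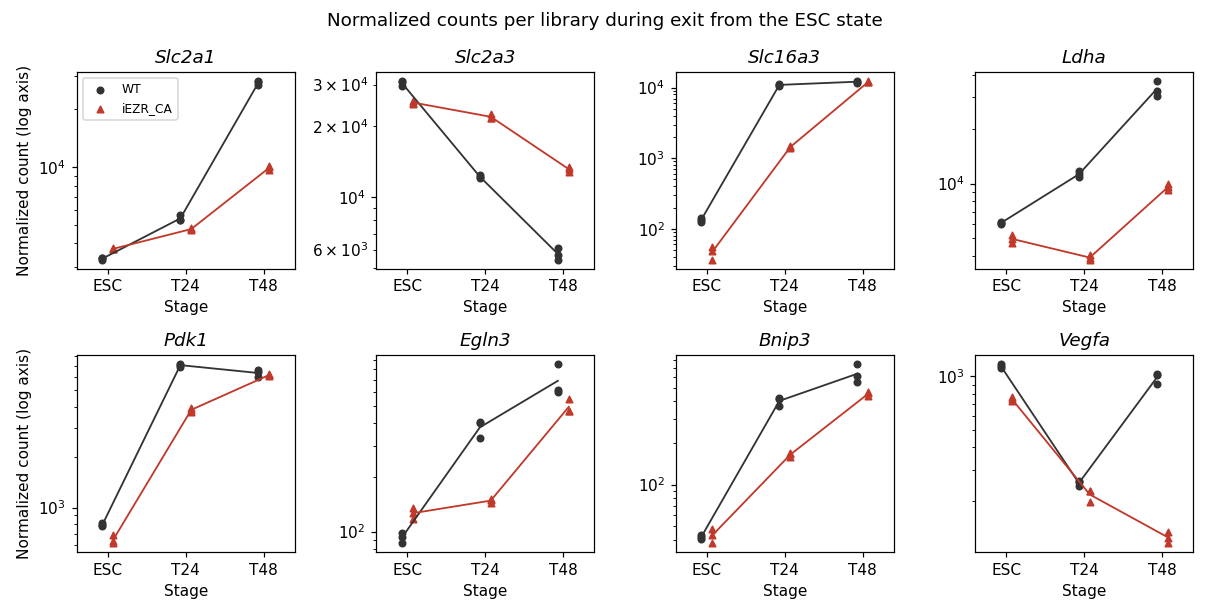
Normalized counts (log axis, one scale per panel) of 8 members by stage, with 1 point per library (3 per group, WT as dark circles, iEZR_CA as red triangles) and lines through the group means. Slc16a3 and Pdk1 are lower in iEZR_CA at T24 and level at T48, Ldha and Slc2a1 stay lower at T48, Slc2a3 stays higher, and Vegfa returns in WT but not in iEZR_CA.

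Among the 11 genes of upper glycolysis, which prime glucose and split it into 3-carbon sugars, 7 were higher and 4 lower at T48 in WT cells, and 5 and 5 in iEZR_CA cells. Of all genes, 37.1% were higher and 37.4% lower in WT cells, and 35.2% and 35.0% in iEZR_CA cells. Both hexokinases, which trap glucose in the cell as its phosphate, fell in both lines. Hk1 fell by 2.63 ± 0.042 on the log2 scale by T48 in WT cells and by 2.10 ± 0.039 in iEZR_CA cells, and it was 1.74 times as high in iEZR_CA cells at T24. Hk2 fell by 0.54 ± 0.028 and 0.98 ± 0.028. The small difference of Hk2 between the lines in ESCs (0.07 ± 0.027) lost its call without WT ESC library 1 or 3 (0.055 and 0.052) or iEZR_CA ESC library 1 or 3 (0.063 and 0.059).

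The 3 subunits of phosphofructokinase 1, the committing step of glycolysis, moved in different directions. Pfkl, the liver-type subunit, had counts of 1609, 1688 and 1616 in WT ESCs and 9684, 9357 and 8551 at T48, and of 1254, 1240 and 1219 and 4515, 4022 and 3680 in iEZR_CA cells. The groups did not overlap at either stage, and the T48 value in iEZR_CA was 0.443 of that in WT. Pfkp, the platelet-type subunit, went from 6015, 5910 and 5994 in WT ESCs to 1358, 1174 and 1126 at T48, and in iEZR_CA cells from 3548, 3684 and 3678 to 1966, 1850 and 1808. The iEZR_CA libraries were lower in ESCs and higher at T48, with an interaction of 1.34 ± 0.057 (edgeR, adjusted p = 1.08e-21). Pfkm, the muscle-type subunit, peaked at T24 in both lines, with means of 1215, 2884 and 1821 in WT cells and 1588, 3728 and 3239 in iEZR_CA cells.

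Pfkfb3 and Pfkfb4 make and remove fructose 2,6-bisphosphate, the activator of phosphofructokinase 1. Pfkfb3 rose in WT cells at T24 (0.55 ± 0.091), was not called in iEZR_CA cells at that time (-0.13 ± 0.097) and rose in both by T48 (1.80 ± 0.079 and 1.12 ± 0.082). Leaving out iEZR_CA T24 library 2 moved that value to -0.28, with a call. Pfkfb4 was rare, at means of 54.9 to 118, and was lower at T48 in both lines. Aldoa, the main aldolase, and Tpi1, which interconverts the 3-carbon sugars, rose in WT cells at T24 (0.20 ± 0.041 and 0.33 ± 0.068) and fell in iEZR_CA cells (-0.16 ± 0.041 and -0.26 ± 0.072). With spike-in scaling both falls lost their call (-0.00680 and -0.11). By T48, Tpi1 had gone from 4547, 4522 and 4522 to 14165, 12891 and 11691 in WT cells and from 3661, 3488 and 3465 to 5589, 4981 and 4915 in iEZR_CA cells. At T48 the lines were far apart for Tpi1, at -1.32 ± 0.067 (edgeR, adjusted p = 5.66e-10). Gpi1, which turns glucose 6-phosphate into fructose 6-phosphate, changed by at most 0.30 on the log2 scale in either line, and Aldoc, a minor aldolase here, was higher at T48 in WT cells (0.64 ± 0.12) and not called in iEZR_CA cells (0.10 ± 0.14).

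Among the 7 genes of lower glycolysis, which harvest ATP and yield pyruvate, 6 were higher and 1 was lower at T48 in each line (37.1% and 37.4% of all genes in WT, 35.2% and 35.0% in iEZR_CA cells). The exception was Eno2, the neuronal enolase, which was rare, with group means from 23.5 to 54.1, and whose fall in WT cells (-0.57 ± 0.18) was not called with spike-in scaling (-0.28) or by DESeq2 (-0.54). Eno1, the ubiquitous enolase, rose from 3193, 3414 and 3353 to 10989, 10875 and 10622 in WT cells and from 2344, 2474 and 2439 to 5400, 5609 and 5572 in iEZR_CA cells, so that the lines did not overlap at either stage. Pkm, a pyruvate kinase gene whose splice forms were not told apart here, was among the most abundant members and rose 2.47-fold in WT and 2.20-fold in iEZR_CA cells. Its difference between the lines at T48 was -0.55 ± 0.022. Pgk1, the first ATP-forming kinase of the pathway, rose 1.40 ± 0.050 and 0.71 ± 0.055 by T48, and Pgam1, the phosphoglycerate mutase, 0.69 ± 0.047 and 0.30 ± 0.049. The T24 value of Pgam1 in WT cells, 0.11 ± 0.049, lost its call without WT ESC library 1 (0.10), 2 (0.11) or 3 (0.12) or without WT T24 library 1 (0.065). Eno3, the muscle enolase, rose by 1.58 in both lines by T24 (interaction 0.0028 ± 0.10). In WT cells it went from 217, 214 and 209 in ESCs to 632, 668 and 626 at T24 and 451, 449 and 466 at T48. In iEZR_CA cells it went from 138, 102 and 105 to 360, 334 and 344 and then 507, 502 and 501. The T48 interaction was 1.05 ± 0.12 (edgeR, adjusted p = 7.74e-12), with a lower ESC start in iEZR_CA cells and T48 counts that lay closer together.

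Several of these genes have processed pseudogenes so alike that reads of one can be placed on another. Annotated copies of at least 95% identity over 300 bases or more were found for 10 members, 77 of them for Gapdh. Of the reads on Gapdh and its copies, 58.1% to 63.1% lay on the copies, and so did 62.1% to 63.6% for Eno1, 42.9% to 45.2% for Gpi1, 26.9% to 27.9% for Pgam1 and 21.1% to 21.3% for Pkm. The listed level of Gapdh, 767 to 1180, is therefore not the level of that enzyme's mRNA. When the copies' reads were added to their member, 320 of 324 log2 fold changes of members kept their direction and side of the threshold. Among those that did not, Gapdh at T24 in iEZR_CA cells gained a call (0.11), and its T48 interaction of -0.35 ± 0.067 lost its call (-0.11).

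The next members stand at the branch between lactate and the mitochondrion. Ldha had counts of 6031, 5997 and 6129 in WT ESCs, 11667, 11279 and 10820 at T24 and 36981, 32661 and 30458 at T48. In iEZR_CA cells these were 5197, 4967 and 4680, then 3882, 3794 and 4021, then 9893, 9523 and 9192. Every WT library was above every iEZR_CA library of the same stage, and the highest iEZR_CA T48 library did not reach the lowest WT T24 library. The interaction was -1.23 ± 0.091 at T24 and -1.50 ± 0.089 at T48 (edgeR, adjusted p = 1.18e-07 and 6.92e-09). The fall of Ldha in iEZR_CA cells at T24 (-0.35 ± 0.066) lost its call with spike-in scaling (-0.20).

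Ldhb, the subunit that favours pyruvate, fell in WT cells at T24 (-0.38 ± 0.030) and rose in iEZR_CA cells (0.39 ± 0.030), and by T48 it was below its ESC level in both lines (-0.96 ± 0.031 and -0.59 ± 0.031). Pdk1 phosphorylates and so switches off pyruvate dehydrogenase, the entry to the mitochondrion. Its counts were 779, 805 and 784 in WT ESCs, 7185, 7141 and 6915 at T24 and 6588, 6464 and 6008 at T48, and in iEZR_CA cells 616, 633 and 685, then 3910, 3844 and 3742, then 6197, 6242 and 6114. At T24 the iEZR_CA mean was 0.541 of WT, and at T48 the lines overlapped, at -0.031 ± 0.030 (edgeR, adjusted p = 0.377). Without WT T48 library 3 that difference was called (-0.080). Pdk3, a kinase of the same enzyme, had group means from 723 to 1015 and made up 77.5% of the reads per kilobase of this pair in WT ESCs and 77.3% in iEZR_CA ESCs.

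Per kilobase of exon, over all annotated exons of a gene, the leading isozyme changed from ESCs to T48 in 5 of 9 enzyme and transporter families in WT cells and in 4 of 9 in iEZR_CA cells, counting only the isozymes among the members. Ldha made up 31.7% ± 0.38 (SD, n = 3) of lactate dehydrogenase reads per kilobase in WT ESCs, 52.7% ± 0.92 at T24 and 83.1% ± 1.04 at T48. The iEZR_CA shares were 35.9% ± 0.55, 25.2% ± 1.42 and 62.0% ± 0.69, so Ldhb still led at T24 in that line. Slc2a1 went from 18.4% ± 0.28 of glucose transporter reads per kilobase to 47.7% ± 0.45 and 90.8% ± 0.27 in WT and from 23.5% ± 0.45 to 30.9% ± 0.74 and 60.9% ± 1.03 in iEZR_CA cells. Slc16a3 made up 72.0% ± 0.25 of the monocarboxylate transporter reads per kilobase in WT at T24 but 27.2% ± 1.01 in iEZR_CA, and 70.6% ± 0.23 and 73.4% ± 0.29 at T48. Pfkl led its family at T48 in WT (68.4% ± 0.65), whereas Pfkm led it per kilobase in iEZR_CA cells at every stage (51.0% ± 1.45, 63.7% ± 0.73 and 56.4% ± 2.48). These leaders depend on the division by exon length. In shares of counts without it, Pfkm led at no stage in iEZR_CA cells (24.6%, 36.9% and 35.3%), where Pfkp led in ESCs and at T24 (56.3% and 42.0%) and Pfkl at T48 (44.3%). Without it Ldha already led in iEZR_CA ESCs (54.2%), Slc2a3 still led there at T48 (57.0%), and the leader changed in 5 of 9 families in WT and 3 of 9 in iEZR_CA cells.

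**Figure D3:**
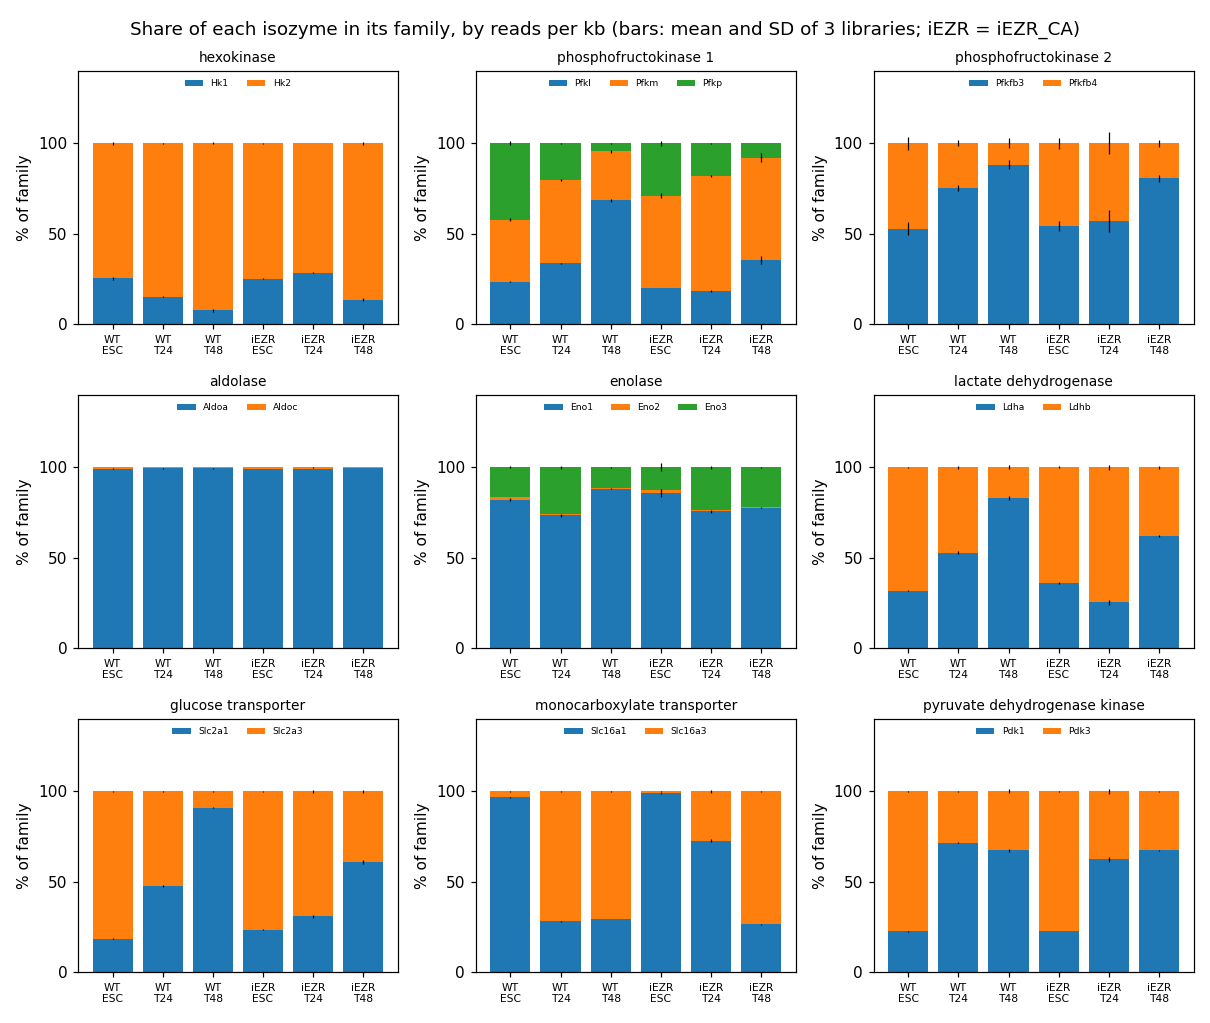
Share of each isozyme in the summed reads per kilobase of exon of its family, in percent, as stacked bars (mean of 3 libraries, error bars SD) for the 6 groups, over the isozymes among the members. Blue Ldha and Slc2a1 grow from ESC to T48 in both lines and further in WT, and Slc16a3 leads at T24 in WT but not in iEZR_CA.

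The 18 glycolytic enzymes from hexokinase to pyruvate kinase other than the Pfkfb genes, with Ldha and Ldhb, took 0.386% ± 0.00052 (SD, n = 3) of all reads per kilobase in WT ESCs, 0.486% ± 0.0063 at T24 and 0.783% ± 0.043 at T48. In iEZR_CA cells they took 0.309% ± 0.0010, 0.336% ± 0.0022 and 0.456% ± 0.014. Within each stage every WT library had the larger share, and the T48 share in iEZR_CA was below that of every WT T24 library. These shares leave out the reads placed on near-identical copies, such as those of Gapdh, Eno1 and Gpi1. Their levels may therefore be too low.

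The oxygen-sensing members were Hif1a and the prolyl hydroxylases. Hif1a mRNA rose in WT cells by 0.42 ± 0.031 at T24 and 0.51 ± 0.031 at T48, and in iEZR_CA cells by 0.09 ± 0.032 and 0.59 ± 0.031. The T24 value in iEZR_CA cells lost its call without iEZR_CA ESC library 2 or T24 library 2 (0.066 in each case) and with spike-in scaling (0.24). HIF1A is controlled mainly through its protein, which was not measured here. Egln3 had counts of 93.3, 86.5 and 97.9 in WT ESCs, 406, 333 and 400 at T24 and 855, 600 and 614 at T48. The iEZR_CA counts were 135, 117 and 127, then 144, 153 and 149, then 546, 467 and 469. At T24 the lines were well apart, with an interaction of -1.79 ± 0.28 (edgeR, adjusted p = 9.25e-05), and the change of Egln3 in iEZR_CA cells at that time was not called (0.25 ± 0.20), although a fit to the 2 groups alone called it (0.26).

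Egln1, the main oxygen sensor of most cells, fell in both lines and was higher in iEZR_CA cells at all stages (0.56 ± 0.048, 0.72 ± 0.056 and 0.25 ± 0.053), the last not called with spike-in scaling (0.29). It lies on chromosome 8, where the median difference between the lines over 683 genes was 0.19 in ESCs, 0.24 at T24 and 0.20 at T48, and over 56 genes in a window of 5 Mb centred on Egln1 it was 0.22, 0.16 and 0.17. Whether that shift has a part in the values of Egln1 was not tested.

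Other textbook HIF targets among the members went separate ways. Bnip3 rose from 41.6, 40.6 and 43.4 in WT ESCs to 422, 418 and 367 at T24 and 743, 608 and 547 at T48, and in iEZR_CA cells from 43.2, 47.7 and 37.8 to 170, 157 and 166 and then 464, 439 and 458. The lines overlapped in ESCs and were apart at T24 and T48. The T24 interaction was -1.37 ± 0.23 (edgeR, adjusted p = 1.54e-06), while the T48 interaction of -0.54 ± 0.22 lost its call without any of 6 libraries, among them WT T48 library 1 (-0.39) and iEZR_CA ESC library 2 (-0.45). An antisense gene overlaps 22.3% of the exon length of Bnip3, and as the strand setting of the counting is not given, reads of the 2 genes may be mixed. Of the reads on Bnip3 and its near-identical copies, 17.7% to 32.4% lay on the copies.

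Vegfa, the growth factor that draws in blood vessels, fell at T24 in both lines and came back in WT cells alone. Its counts were 1142, 1174 and 1113 in WT ESCs, 259, 242 and 255 at T24 and 1023, 1031 and 907 at T48. In iEZR_CA cells they were 766, 731 and 746, then 197, 229 and 227, then 125, 135 and 116. At T48 the iEZR_CA mean was 0.127 of the WT mean, and the interaction was -2.33 ± 0.091 (edgeR, adjusted p = 7.49e-33), the largest among the members. With spike-in scaling the small deficit of WT T48 against WT ESC (-0.24 ± 0.049) became 0.031.

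Ndrg1, a stress-responsive gene that is also induced by differentiation, ran the other way: it was higher in iEZR_CA cells at every stage (0.61 ± 0.096, 1.30 ± 0.097 and 1.10 ± 0.13) and fell by 1.25 ± 0.12 on the log2 scale by T48 in WT cells. P4ha1 and P4ha2, subunits of the collagen prolyl hydroxylase, were lower in iEZR_CA cells at T48 (-0.54 ± 0.063 and -0.75 ± 0.11). In WT cells both were lower at T24 (-0.46 ± 0.067 and -0.49 ± 0.18) and higher at T48 (0.37 ± 0.062 and 1.76 ± 0.13) than in ESCs. The T24 fall of P4ha2 lost its call without WT T24 library 1 (-0.44), with spike-in scaling (-0.35) and by DESeq2 (-0.48). Ero1l, an oxidase of protein folding in the endoplasmic reticulum, was higher in iEZR_CA ESCs and T24 cells (0.39 ± 0.051 and 0.55 ± 0.053) and not called at T48 (-0.060 ± 0.050). Without WT T48 library 3 the T48 difference was called (-0.13). It lies on chromosome 14, where the median difference between the lines was -0.30, -0.35 and -0.24 over 427 genes, although the 24 genes in a window of 5 Mb centred on Ero1l had medians of 0.11, 0.00022 and 0.12. Ankrd37 had group means from 6.75 to 31.8 and was lower in iEZR_CA cells in ESCs (-1.01 ± 0.30) and at T24 (-1.25 ± 0.36), on chromosome 8, whose median was positive.

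Compared at the same stage, iEZR_CA cells had more members lower than higher. In ESCs 17 members (47.2%) were lower and 8 (22.2%) higher, against 28.1% and 26.4% of all genes, at T24 23 (63.9%) were lower and 9 (25.0%) higher, against 30.1% and 30.8%, and at T48 23 were lower and 9 higher, against 30.1% and 31.0%. With spike-in scaling 10 were lower and 5 higher in ESCs, 14 and 8 at T24 and 19 and 5 at T48. Of the members called with that scaling, 33.3%, 36.4% and 20.8% were higher, against 55.8%, 61.1% and 55.7% of all genes called. In the main fit the medians of the members were -0.20, -0.26 and -0.43, the last of which was -0.13 without the members that have copies. By role, lower glycolysis had 4 of 7 members lower and 0 higher in ESCs, 6 and 0 at T24 and 6 and 1 at T48. The 1 higher was Eno3 (0.15 ± 0.063), whose call at T48 was lost without any single library of either T48 group, at 0.13 to 0.16, and also by DESeq2 (0.14). Members higher in iEZR_CA cells at T48 were Slc2a3, Hk1, Pfkm, Pfkp, Pfkfb4, Eno3, Hif1a, Egln1 and Ndrg1. Of these, Pfkfb4 (0.39 ± 0.16) lost its call without WT T48 library 1 (0.26) or 2 (0.36) or iEZR_CA T48 library 2 (0.29), and Hif1a (0.09 ± 0.031) without WT T48 library 1 (0.056). Pfkfb4, Eno3, Egln1 and Hif1a were not called at T48 with spike-in scaling (0.43, 0.19, 0.29 and 0.14).

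**Figure D4:**
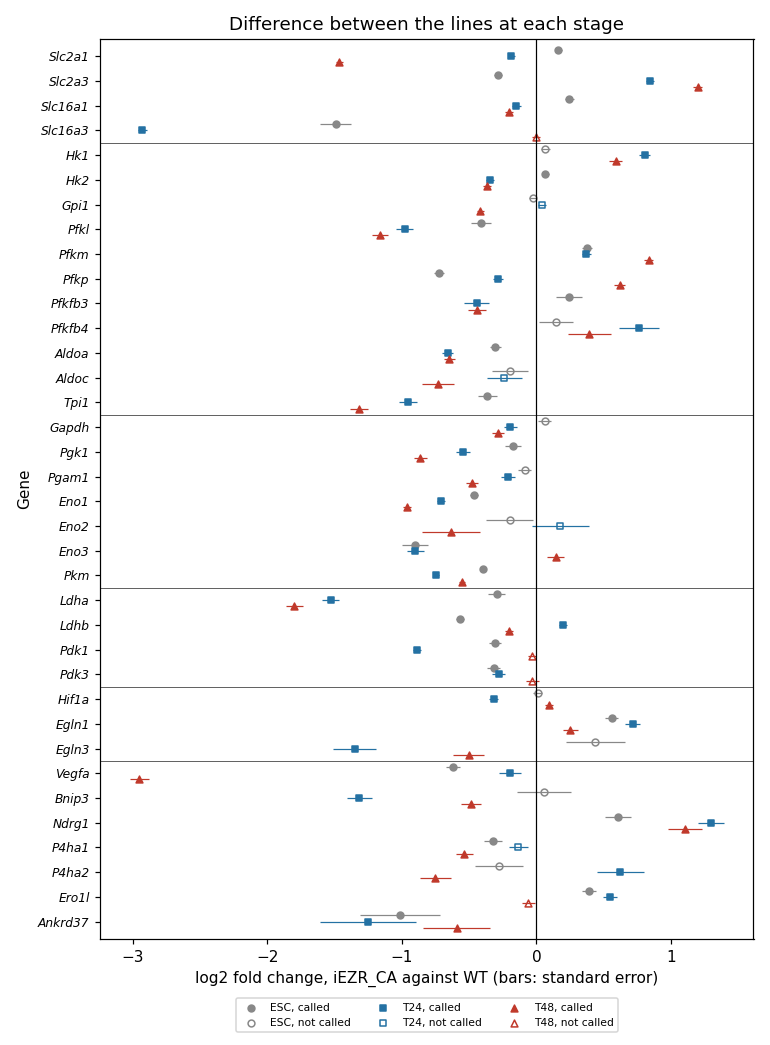
log2 fold change of iEZR_CA against WT for each member at ESC (grey circles), T24 (blue squares) and T48 (red triangles), with bars for the standard error and filled symbols for called differences. Vegfa, Ldha, Slc2a1, Tpi1 and Pfkl reach the lowest values at T48, Slc16a3 at T24, and Slc2a3 and Ndrg1 lie highest.

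The exit responses of the lines, which share no libraries, sorted the members by timing. At T24, 10 members rose in both lines (Pfkl, Pfkm, Eno1, Eno3, Pkm, Slc2a1, Slc16a3, Pdk1, Bnip3 and Hif1a), 8 of them with a called interaction, and 9 fell in both. Another 4 rose in WT and fell in iEZR_CA cells (Aldoa, Tpi1, Ldha and Slc16a1), all 4 with a called interaction (Tpi1 and Ldha also with spike-in scaling), although their falls in iEZR_CA cells were not called with spike-in scaling. The reverse held for Pfkp, Ldhb, P4ha2 and Ndrg1, whose falls in WT cells were not called with spike-in scaling (-0.088, -0.24, -0.35 and -0.21). The rise of P4ha2 in iEZR_CA cells (0.41 ± 0.18) lost its call without any of 5 libraries (0.35 to 0.43). By T48, 21 members had risen in both lines and 10 had fallen in both, and 2, Gpi1 and Slc16a1, rose in WT and fell in iEZR_CA cells by small amounts. Spike-in scaling turned the falls of these 2 in iEZR_CA cells (0.0089 and 0.15). Of all genes, 31.8% were higher and 33.6% lower at T24 in WT cells, and 27.1% and 28.9% in iEZR_CA cells. At T48 these shares were 37.1% and 37.4% in WT and 35.2% and 35.0% in iEZR_CA cells. The share of all genes that moved alike in both lines was not counted.

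**Figure D5:**
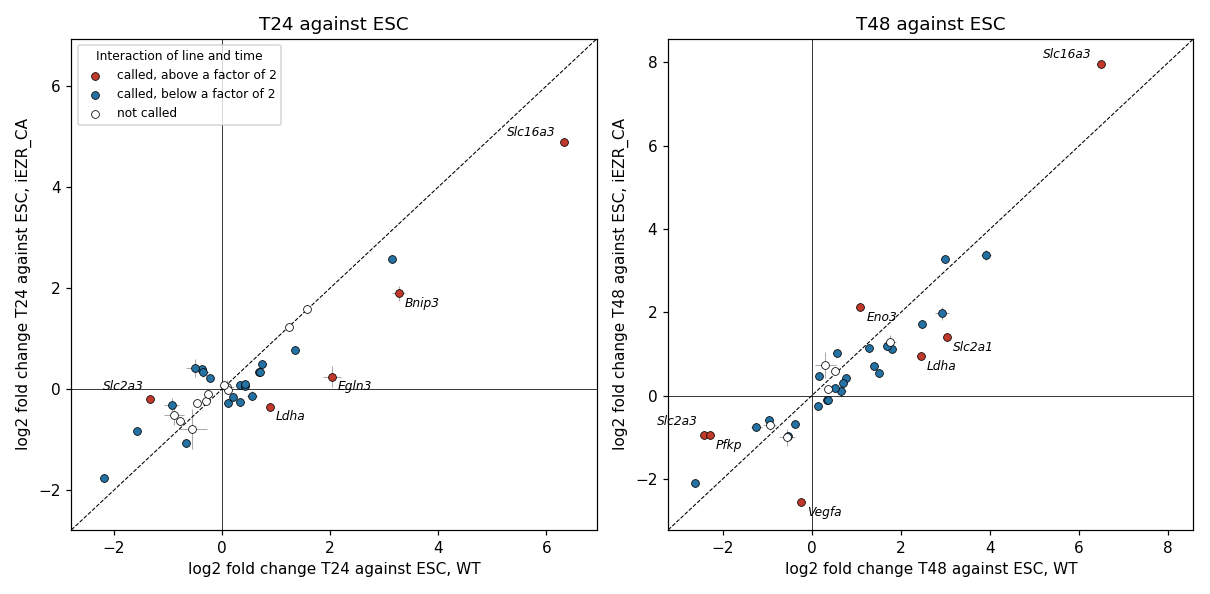
log2 fold change from ESC to T24 (left) and to T48 (right) in iEZR_CA cells against that in WT cells, 1 point per member with standard errors, coloured by the test of the interaction of line and time, with a dashed line where the lines change equally. At T24 Slc16a3, Bnip3, Egln3 and Ldha lie below the dashed line and Slc2a3 above it, and at T48 Vegfa, Slc2a1 and Ldha lie below it and Slc16a3, Slc2a3, Pfkp and Eno3 above it.

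Libraries of the T48 groups were ordered alike across many members. WT T48 library 1 had the highest count of its group for 27 of 36 members and library 3 the lowest for 28, and iEZR_CA T48 library 1 had the highest for 24. These counts were not made over all genes, so whether the order is particular to the members was not tested. The median change from ESCs to T48 in WT cells ranged from 0.54 to 0.56 when each library was left out.

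Beside the members, 23 further HIF targets were tested. At T48, 13 (56.5%) were higher and 8 (34.8%) lower in WT cells, against 37.1% and 37.4% of all genes. In iEZR_CA cells 12 (52.2%) were higher and 8 (34.8%) lower, against 35.2% and 35.0%. Between the lines at T48, 8 (34.8%) were higher and 11 (47.8%) lower in iEZR_CA cells, against 31.0% and 30.1%. Stc2, a secreted glycoprotein, and Ddit4, an inhibitor of mTORC1, were furthest below WT (-2.59 ± 0.082 and -1.60 ± 0.093). Ak4, a mitochondrial adenylate kinase, fell by 3.56 ± 0.035 on the log2 scale by T48 in WT cells and was 2.05 ± 0.034 higher in iEZR_CA cells at T24.

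Of 10 other genes of the HIF system, all tested, 4 (40%) were higher and 6 (60%) lower at T48 in WT cells, against 37.1% and 37.4% of all genes. Epas1, the alternative alpha subunit HIF2A, was lower in iEZR_CA cells at T24 (-0.73 ± 0.038) and higher at T48 (1.76 ± 0.055). Of 9 regulators of glycolysis, 7 (77.8%) were lower in iEZR_CA cells at T24 and 2 (22.2%) higher, against 30.1% and 30.8% of all genes. Among them were Lin28a, an RNA-binding protein that restrains let-7 (-2.22 ± 0.031), and Myc, a transcription factor with many glycolytic targets (-1.67 ± 0.054).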

How the data were processed

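RNA was sequenced from 18 libraries (WT and iEZR_CA, ESC, T24 and T48, 3 each) after poly(A) selection. As deposited, the values are raw read counts per gene, which the authors made from reads trimmed with Trim Galore 0.6.5, aligned with GSNAP to GRCm38 and counted with HTSeq on Ensembl release 81. How reads with several matches were treated, and the strand setting, are not given in the sources used here. Spike-in sequences and the rows of unassigned reads were left out of library sizes. Reads on genes made up 74.9% to 77.9% of each column and spike-in sequences 0.575% to 0.884%, and 0 columns were left unused. Replicates differed beyond sampling noise (chi-square per degree of freedom from 1.607 to 3.588). The study describes its 3 replicates per condition as biological and independent, and the labels do not say how they were separated.

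All genes were tested in R 4.3.3 with the quasi-likelihood test of edgeR 4.0.16 (limma 3.58.1, TMM factors 0.9755 to 1.03, filterByExpr, robust fit, a model with a term per group of which there were 6, 12 residual degrees of freedom, 18469 genes), with Benjamini-Hochberg adjustment over all genes and a threshold of 0.05. Normalized counts used the size factors of DESeq2 1.42.0. Standard errors are the log2 fold change divided by the square root of F. On data simulated for iEZR_CA against WT at T24, with 200 of 18469 genes changed, the test recovered 93% of the changed genes and called 0.0399% of the others. The simulated counts came from the kind of model the test assumes, with the spread it had estimated. Far fewer genes were changed than were called in the data, and none by as little as many called genes. These rates therefore check the code and do not measure the error rates in these data. Lengths, copies and overlaps came from GENCODE M21 transcripts, promoters from RefSeq, and tables and plots were made with Python 3.11.15, numpy 2.4.6, pandas 2.3.3 and matplotlib 3.10.9.

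The members and all lists (isozymes outside the members, pyruvate entry, pentose phosphate pathway, further HIF targets, HIF system, regulators of glycolysis and markers of cell types) were chosen with earlier results of these data known. All members are named. From the other lists, at most the 2 genes with the largest rise and the 2 with the largest fall in a comparison were named, among those called and with a mean normalized count of at least 50, together with Ezr. Alternatives were DESeq2, its size factors in edgeR, spike-in scaling, other filters, a fit to the groups of the comparison alone, leaving out each library, and leaving out the members with copies. Adding the reads of near-identical copies was chosen after seeing the data.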

Additional observations from a re-analysis of the deposited data

Results flagged for a closer look

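The change from ESCs differed between the lines by more than a factor of 2, by the test of the interaction of line and time (edgeR quasi-likelihood test, adjusted p under 0.05), for 12 pairs of a member and a stage. At T24 the value for iEZR_CA less that for WT was -1.23 for Ldha, 1.13 for Slc2a3, -1.44 for Slc16a3, -1.37 for Bnip3 and -1.79 for Egln3. At T48 it was 1.34 for Pfkp, 1.05 for Eno3, -1.50 for Ldha, -1.63 for Slc2a1, 1.48 for Slc2a3, 1.49 for Slc16a3 and -2.33 for Vegfa. Of the 3 genes listed at both stages, Ldha and Slc2a3 kept their sign and Slc16a3 turned. Pfkp and Slc2a3, which fell in WT cells, had positive values, as did Eno3, while the other members with a value at T48 past this size, apart from Slc16a3, had negative ones. All 12 stayed past the adjusted threshold with each library left out in turn and with spike-in scaling.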

How the results depend on the processing

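Of 324 log2 fold changes of members, 310 kept their direction and side of the threshold with DESeq2, 322 with its size factors, 312 with no filter, 317 of 323 with a fit to the compared groups alone, 312 of 315 with at least 10 counts in every library, 320 with the reads of copies added and 243 with spike-in scaling. Spike-in scaling turned 3, Vegfa at T48 in WT (0.031) and Gpi1 (0.0089) and Slc16a1 (0.15) at T48 in iEZR_CA, and no other setting turned any. It left 15 members called between the lines in ESCs, 17 in iEZR_CA at T24, and 13 and 14 for the interactions at T24 and T48. Its medians were -0.15 and -0.17 between the lines in ESCs and at T24, 0.24 and 0.81 in WT at T24 and T48, and 0.21 and 0.69 in iEZR_CA. Without the members that have copies the medians were -0.22 and -0.13 between the lines at T24 and T48, -0.089 and 0.36 in WT, -0.029 and 0.29 in iEZR_CA, and -0.0017 and -0.26 for the interactions. The cause of these shifts was not tested. The iEZR_CA T24 median was 0.072 with no filter and 0.076 with a fit to its groups alone, and the T24 interaction median -0.13 with at least 10 counts. Shares of the 18 enzymes in counts, with no division by length, were 0.479%, 0.589% and 0.952% in WT and 0.393%, 0.411% and 0.570% in iEZR_CA. With each library left out, 22 to 25, 31 to 33 and 28 to 33 members were called between the lines in ESCs, at T24 and at T48, 31 to 33 and 35 in WT, 25 to 26 and 32 to 35 in iEZR_CA, and 24 to 26 and 28 to 31 for the interactions. The medians ranged from -0.22 to -0.18, -0.28 to -0.21 and -0.48 to -0.35 between the lines, 0.072 to 0.15 and 0.535 to 0.557 in WT, 0.023 to 0.057 and 0.417 to 0.460 in iEZR_CA, and -0.20 to -0.12 and -0.405 to -0.325 for the interactions. Enzyme shares stayed within 0.386 to 0.387%, 0.483 to 0.489% and 0.760 to 0.803% in WT and 0.308 to 0.309%, 0.335 to 0.337% and 0.449 to 0.462% in iEZR_CA, and the families that changed leader stayed at 5 and 4 (5 and 3 with no division by length). No paired analysis was possible because the labels give plate wells and no replicate numbers. Depth limits the rare members (Ankrd37, Eno2, P4ha2 and Pfkfb4), and reads shared with copies limit the levels of Gapdh, Eno1 and Gpi1.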

Other observations

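Of 10 genes that let pyruvate into the mitochondrion or act on it there, 2 (20%) were higher and 6 (60%) lower at T48 than in ESCs in WT cells, against 37.1% and 37.4% of all genes. Between the lines at T48, 5 (50%) were higher and 1 (10%) lower in iEZR_CA cells, against 31.0% and 30.1%. Mpc1, a subunit of the mitochondrial pyruvate carrier, fell in both lines (-1.39 ± 0.15 in WT and -1.43 ± 0.11 in iEZR_CA cells) and lay above WT in iEZR_CA cells in ESCs, at T24 and at T48 (1.08 ± 0.11, 1.02 ± 0.12 and 1.03 ± 0.16). Pcx, pyruvate carboxylase, was higher in iEZR_CA cells at T48 (1.11 ± 0.048). Pdp2, a phosphatase that reactivates pyruvate dehydrogenase, fell by 1.24 ± 0.044 on the log2 scale in WT cells.

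Of 7 genes of the pentose phosphate pathway, which branches from glycolysis to make NADPH and ribose, 3 (42.9%) were higher and 3 (42.9%) lower at T48 in WT cells, against 37.1% and 37.4% of all genes. In this pathway 4 (57.1%) were higher and 3 (42.9%) lower in iEZR_CA than in WT cells at T48, against 31.0% and 30.1%. Pgd (0.44 ± 0.028) and Taldo1 (0.38 ± 0.029), of its oxidative and non-oxidative arms, were among the higher. G6pdx, the enzyme at its entry, rose in WT cells (0.86 ± 0.038) and less in iEZR_CA cells (0.37 ± 0.040), and was lower in iEZR_CA cells at T48 (-0.52 ± 0.037). Of 21 isozymes outside the members, 15 passed the filter. Of these, 5 (33.3%) were higher and 5 (33.3%) lower at T48 in WT cells, against 37.1% and 37.4% of all genes. Ldhc, the lactate dehydrogenase of the testis, was higher in iEZR_CA cells at T24 (1.72 ± 0.17), and Pdk4, a further pyruvate dehydrogenase kinase, at T48 (1.53 ± 0.22).

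Among the marker lists, 6 trophectoderm genes summed to normalized counts of 274 to 288, 288 to 300 and 733 to 820 in WT ESC, T24 and T48 libraries and to 457 to 500, 716 to 791 and 733 to 749 in iEZR_CA libraries. Of the 5 tested, 2 were higher and 2 lower at T48 than in ESCs in WT cells, and 3 and 2 in iEZR_CA cells. The 3 general pluripotency genes summed to 36558 to 37389 in WT ESC libraries and 28482 to 29165 in iEZR_CA ESC libraries, and to 22044 to 22710 and 21196 to 21495 at T48.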
